A study of Mus musculus with 57 samples.

Results

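The 10 genes described here encode regulators of *Hox* gene chromatin of the Polycomb and Trithorax groups. They are *Ezh1*, *Ezh2*, *Eed*, *Suz12* and *Jarid2* of Polycomb repressive complex 2 (PRC2), *Rnf2*, *Bmi1*, *Cbx2* and *Cbx7* of Polycomb repressive complex 1 (PRC1), and *Kmt2a* of the Trithorax group. They were chosen by name, and all 10 were found among the 56860 genes listed in the count and TPM tables. The tables hold 57 libraries of polyA-selected RNA from wild-type (wt) and *Hoxa5*-/- mouse embryos kept in the 129/Sv background. Lung was sampled at 2 stages, E12.5 and E15.5, trachea and diaphragm at the later one. Somites came from E10.5 or E12.5 embryos, and brown adipose tissue from between the shoulder blades (interscapular, iBAT) from E18.5 embryos. Each genotype had 4 libraries per tissue and stage, except somites at E10.5 with 4 wt and 3 *Hoxa5*-/- libraries and iBAT with 5 of each. The *Hoxa5*-/- embryos carry a null allele with a neomycin cassette in the homeobox of the gene. What is called somites here is tissue of the C3 to T2 level of the trunk, freed of the neural tube, the forelimbs and the organs of the chest.

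PRC2 places methyl groups on lysine 27 of histone H3. EZH1 and EZH2 are its alternative catalytic subunits, EED and SUZ12 are needed for its activity, and JARID2 is an accessory subunit that helps to recruit it. PRC1 carries the ubiquitin ligase RNF2 together with BMI1, and its CBX subunits bind the mark left by PRC2 through a chromodomain. KMT2A acts against this repression by methylating lysine 4 of histone H3, and Polycomb and Trithorax proteins were first known for keeping *Hox* genes off or on along the body axis.

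Trachea, lung and diaphragm libraries were sequenced at 1 centre (reads of 100 bases) and somites and iBAT at another (reads of 150 bases), so tissue and centre cannot be told apart between these sets, and every test was made within 1 set. Counts per library ran from 18369905 to 72991481. *Hoxa5* itself was lower in *Hoxa5*-/- libraries in 7 of 7 tissues and stages, with log2 fold changes from -1.94 to -0.92 and no overlap between genotypes (adjusted p from 2.6e-06 to 0.0475, quasi-likelihood test of edgeR, p adjusted by Benjamini-Hochberg). The insertion leaves exons of *Hoxa5* in place, so its reads can still be counted in mutants. The labelled tissues carried their own markers, and some libraries also carried those of others. All 8 diaphragm libraries held the hepatocyte gene *Alb* (184 to 5370 TPM), and wt replicate 3 of diaphragm held the lung gene *Sftpc* at 322 TPM, as wt replicate 3 of trachea did at 288 TPM. The summed TPM of 5 neuron markers ran from 28.4 to 59.3 in wt and from 6.89 to 10.6 in *Hoxa5*-/- diaphragm, without overlap. That of 6 diaphragm markers reached 612 in *Hoxa5*-/- trachea (group median 21.9), against at most 69.9 in wt trachea. The part of such tissue in the genotype values was not tested. In *Hoxa5*-/- replicate 1 of lung at E12.5, the summed TPM of 6 erythroid markers reached 108000, against at most 25900 in the 4 wt libraries. In *Hoxa5*-/- replicate 4 of lung at E15.5, the 10 genes with the highest TPM took up 36.7% of all TPM, against 7.52% to 8.61% in the other 3 libraries of its group. The ribosomal RNA gene *Rn18s-rs5*, picked out after its values were seen, was at 197000 TPM in it and at most at 18000 TPM in the other respiratory libraries. TPM of 85.4% of genes with at least 1 TPM was lowest of the group in this library, that of all 10 members included. The study describes the libraries as biological replicates, and its number of wt embryos is the same as that of the wt libraries. In bulk RNA, fewer cells of a type and less RNA per cell cannot be told apart.

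Both PRC2 core genes whose promoters hold a word of the E2F type are shown with that of *Ezh1*, the paralog of *Ezh2* that lacks one. Each RefSeq promoter of 300 bases (build GRCm38.p6) was matched exactly once in GRCm39, the build of the tables. Capitals mark the word, searched on both strands as TTTCCCGC, TTTGGCGC, TTTCGCGC or TTTGCCGC.
Ezh2 promoter (GRCm39, chr6:47571915-47572214, minus strand): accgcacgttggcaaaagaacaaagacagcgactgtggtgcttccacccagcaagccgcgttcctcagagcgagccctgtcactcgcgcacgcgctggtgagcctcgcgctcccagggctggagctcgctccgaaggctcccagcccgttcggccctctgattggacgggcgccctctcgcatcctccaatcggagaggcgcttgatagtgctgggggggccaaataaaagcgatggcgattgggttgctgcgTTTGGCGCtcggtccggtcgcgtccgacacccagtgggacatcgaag
Suz12 promoter (GRCm39, chr11:79883682-79883981, plus strand): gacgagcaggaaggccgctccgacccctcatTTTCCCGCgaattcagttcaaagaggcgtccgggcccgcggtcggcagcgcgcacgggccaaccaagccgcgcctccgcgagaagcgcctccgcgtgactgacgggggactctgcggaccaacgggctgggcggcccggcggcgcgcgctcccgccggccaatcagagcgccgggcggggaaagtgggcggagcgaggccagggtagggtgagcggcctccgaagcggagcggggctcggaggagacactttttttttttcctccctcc
Ezh1 promoter (GRCm39, chr11:101117240-101117539, minus strand): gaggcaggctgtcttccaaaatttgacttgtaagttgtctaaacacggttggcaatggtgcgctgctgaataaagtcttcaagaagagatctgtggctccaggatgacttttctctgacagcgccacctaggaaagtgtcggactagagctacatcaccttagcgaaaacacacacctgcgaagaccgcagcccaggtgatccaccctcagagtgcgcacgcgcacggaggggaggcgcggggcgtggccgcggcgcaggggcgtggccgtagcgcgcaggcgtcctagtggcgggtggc
The word of *Ezh2* starts at base 254 counted from the 5′ end and that of *Suz12* at base 32. A promoter entry was matched for 9 of the 10 genes, and 2 of these 9 (22.2%) held such a word, against 2.6% of 27025 genes. A match is a description of letters and not of binding. CpG pairs numbered 31 in the *Ezh2*, 41 in the *Suz12* and 23 in the *Ezh1* promoter, where the median of all promoters was 7. Promoters of the 9 genes held from 17 (*Eed*) to 41 pairs. The words searched hold CpG too, and the 2 shares above are not matched for it. *Ezh2* lies on chromosome 6 like *Hoxa5*, at bases 47507073 to 47572275 on the minus strand, 4.61 Mb from it, and the other 9 genes lie on other chromosomes than the *Hoxa5* gene. Exons of *Eed*, *Cbx7*, *Rnf2* and *Kmt2a* share from 100 bases (*Cbx7* with *Apobec3*) to 378 bases (*Kmt2a* with *Gm39326*) with a gene of the opposite strand, and the strand setting of the counting is not given in the sources used here, so reads in those bases cannot be told apart.

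In wt tissues, *Rnf2* was among the 2 members with the highest mean TPM in 6 of 7 tissues and stages, and *Cbx7* was the lowest in 7 of 7. TPM (transcripts as a share of the library) is corrected for the exon length listed for each gene. Comparisons of levels between genes rest on those lengths. Group means of *Ezh1* ran from 10.4 to 21.9 TPM over the 14 groups. The other catalytic gene, *Ezh2*, ranged from 11.2 to 163 TPM, *Cbx2* from 3.2 to 169 TPM and *Kmt2a* from 6.31 to 64.7 TPM. *Cbx7* means lay between 0.343 and 6.36 TPM, from 10 to 666 counts per library, which makes it the least precisely measured member.

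**Figure D1:**
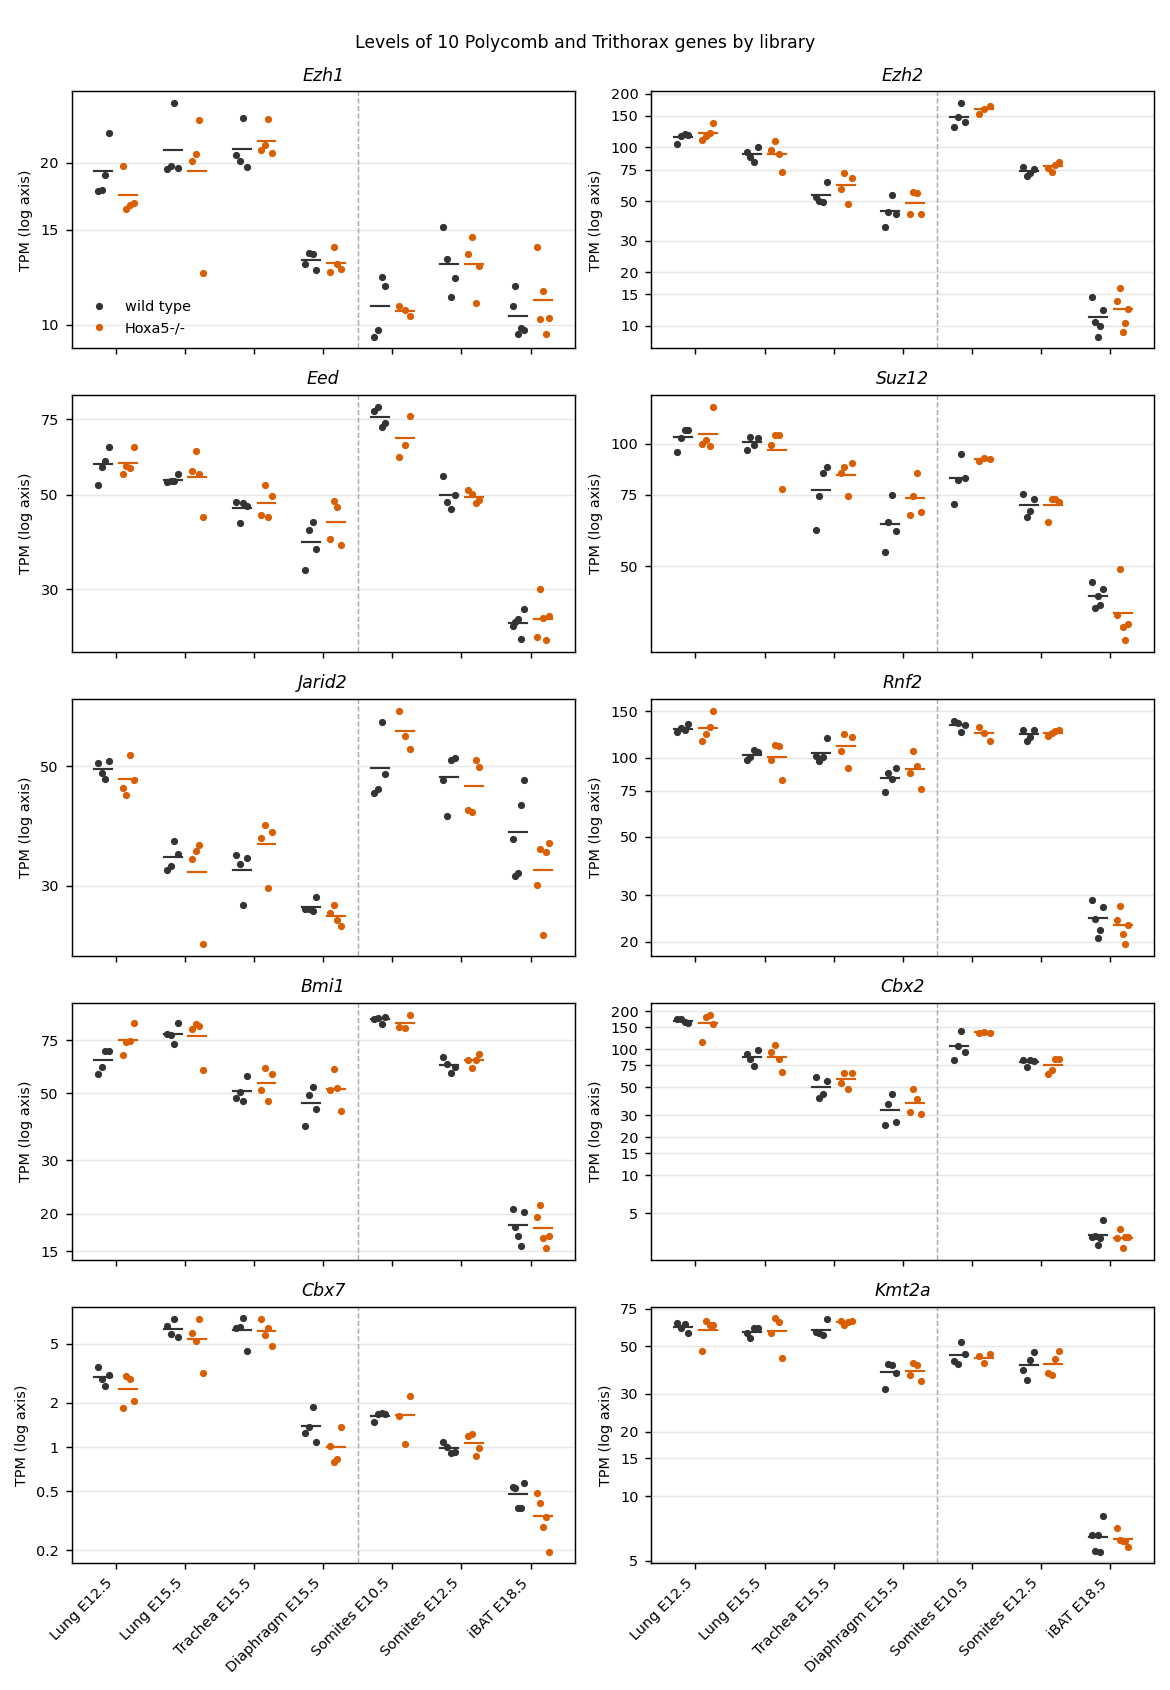
TPM (log axis) of each of the 10 genes in every library by tissue and stage, with wt in dark grey and Hoxa5-/- in orange, points for libraries and bars for group means; the dashed line separates the sets sequenced at different centres. The ranges of both genotypes overlap at every tissue and stage, and the iBAT libraries are the lowest for Ezh2, Cbx2, Rnf2, Bmi1 and Kmt2a.

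Among wt groups, mean *Ezh2* was highest in somites at E10.5, followed by lung at E12.5, lung at E15.5, somites at E12.5, trachea, diaphragm and iBAT. Neighbours in this order did not overlap except trachea and diaphragm, but the order sets levels of separately sequenced tables side by side. *Cbx2* was highest in lung at E12.5 (169 ± 6.13 TPM, SD, n = 4), without overlap with somites at E10.5 (106 ± 24.8 TPM, n = 4), which in turn overlapped lung at E15.5. *Cbx7* had another order, with lung at E15.5 (6.36 ± 0.806 TPM, n = 4) and trachea (6.23 ± 1.25 TPM, n = 4) overlapping each other at the top, and lung at E12.5 (3.01 ± 0.367 TPM, n = 4) below both.

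To ask whether loss of *Hoxa5* changed these regulators, *Hoxa5*-/- libraries were compared with wt ones in each tissue and stage. No member was called in any of the 7 comparisons, where an edgeR call needed both a change of 1.5-fold or more in either direction and an adjusted p under 0.05. *Cbx7* stayed under the 1 TPM minimum in iBAT, which left 69 values. Of the genes tested, 0.0156% were called in trachea, 0.0798% in lung at E12.5, 0.124% in lung at E15.5, 0.594% in diaphragm, 0.0215% in somites at E10.5, 0.00529% in somites at E12.5 and 0.00657% in iBAT. The edgeR adjusted p of members was 0.373 or more, and 2 of the 69 values had an unadjusted p under 0.05. DESeq2 called 0 members as well, but 0.271% of tested genes in trachea, 0.462% in lung at E12.5, 0.467% in lung at E15.5, 2.25% in diaphragm, 0.0969% in somites at E10.5, 0.0106% in somites at E12.5 and 0.0263% in iBAT. TPM of the genotypes overlapped for every member in every comparison, while 3.74% of tested genes did not overlap in trachea, 4.09% in lung at E12.5, 2.96% in lung at E15.5, 6.87% in diaphragm, 7.37% in somites at E10.5, 2.51% in somites at E12.5 and 0.316% in iBAT. Without *Hoxa5*-/- replicate 4 of lung at E15.5, *Eed* alone did not overlap there (wt up to 55.88 TPM, *Hoxa5*-/- from 55.89 TPM), where 6.54% of tested genes did not.

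The intervals limit what these libraries could have missed. The 95% interval of the log2 fold change lay within a change of 1.5-fold in both directions for 65 of 69 values. The exceptions were *Cbx7* in lung at E12.5 (-0.66 to 0.10) and in diaphragm (-1.01 to 0.07), and *Cbx2* in diaphragm (-0.24 to 0.61) and in somites at E10.5 (0.04 to 0.60).

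**Figure D2:**
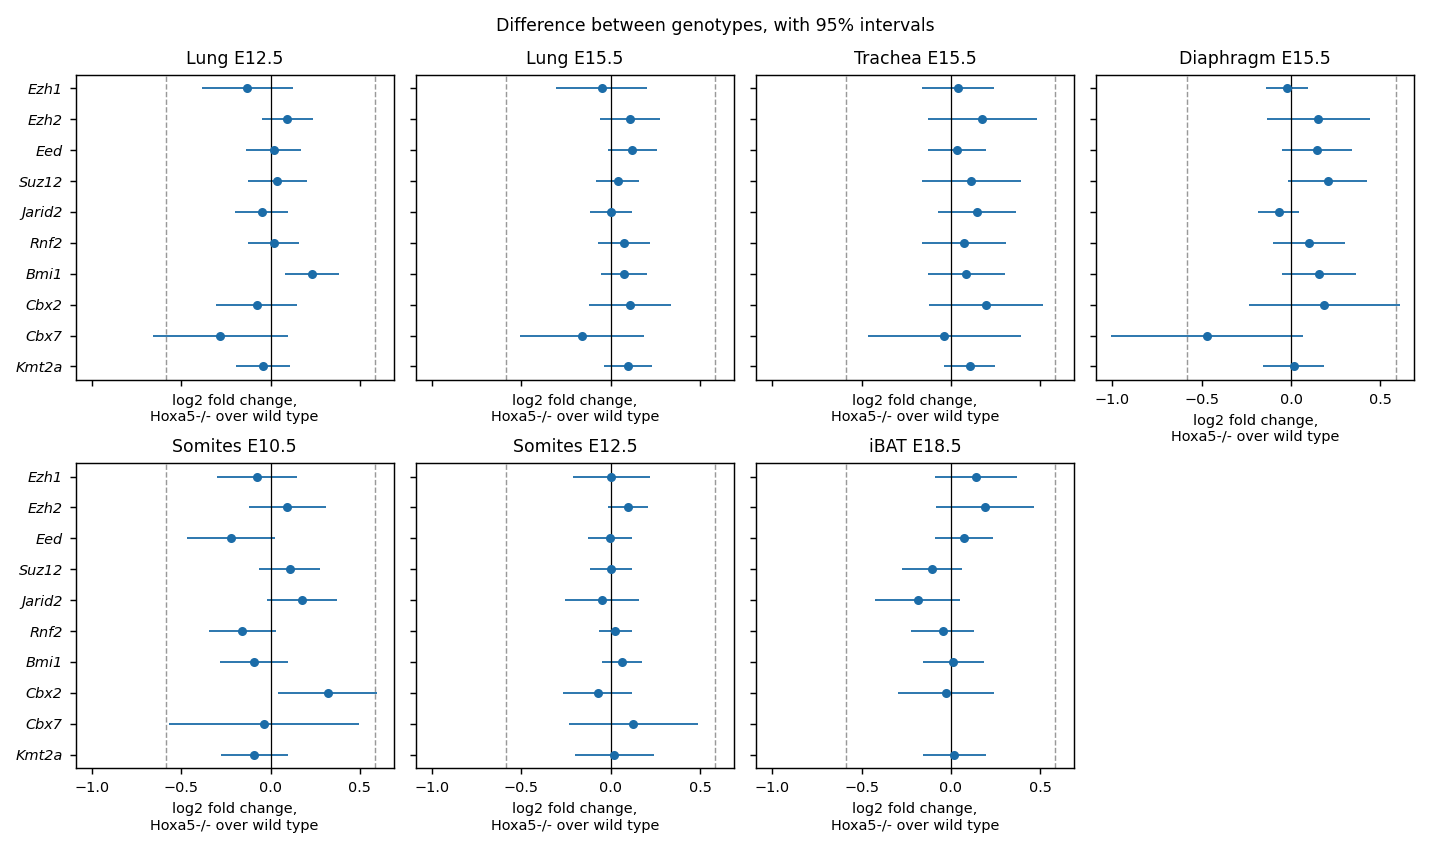
Log2 fold change of Hoxa5-/- over wt for the 10 genes in the 7 tissues and stages, with points for edgeR estimates, bars for 95% intervals and dashed lines at a change of 1.5-fold. Estimates ran from -0.47 (Cbx7 in diaphragm) to 0.32 (Cbx2 in somites at E10.5), and 4 of 69 bars reach past a dashed line.

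*Ezh2* had an estimate above 0 in 7 of 7 comparisons, between 0.09 and 0.19, with a lowest adjusted p of 0.63. In lung at E15.5, its wt libraries held 93.6, 88.5, 83.2 and 101 TPM and the *Hoxa5*-/- ones 96.4, 108, 91.6 and 72.9 TPM. The lowest of these 8 values is that of *Hoxa5*-/- replicate 4, the library rich in *Rn18s-rs5*, and without it the log2 fold change was 0.08 (edgeR). *Cbx7* had an estimate below 0 in 5 of 6 comparisons, and none passed the adjusted threshold. The estimate in trachea (-0.04) turned to 0.069 without wt replicate 3, and that in somites at E10.5 (-0.04) turned to 0.20 without *Hoxa5*-/- replicate 2. Its largest was in diaphragm, with 1.24, 1.37, 1.88 and 1.09 TPM in wt and 1.01, 0.79, 0.832 and 1.37 TPM in *Hoxa5*-/- libraries (log2 fold change -0.47 ± 0.24, SE, adjusted p = 0.448, edgeR). The highest wt value belongs to replicate 3, the library with the lung gene *Sftpc*, whose part in this value was not tested.

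*Bmi1*, a ring-finger partner of RNF2, and *Cbx2* gave the 2 values with an unadjusted p under 0.05. *Bmi1* in lung at E12.5 was at 57.8, 61.3, 68.9 and 69.2 TPM in wt and at 67.2, 73.7, 74.6 and 85.5 TPM in *Hoxa5*-/- libraries. The groups overlapped in the range of 67.2 to 69.2 TPM, with a log2 fold change of 0.23 and an adjusted p of 0.373 (edgeR). *Cbx2* in somites at E10.5 was at 81.6, 107, 140 and 95.5 TPM in wt and at 135, 138 and 135 TPM in *Hoxa5*-/- libraries. Only wt replicate 3 lay at the mutant level, and the log2 fold change was 0.32 with an adjusted p of 0.391 (edgeR). Without this library, the values were 0.45 for *Cbx2* (adjusted p = 0.0181) and 0.26 for *Jarid2* (adjusted p = 0.0253), both under the fold limit (edgeR). It holds the highest wt value of both genes, so leaving it out widens both differences by itself. In that fit, 386 genes in place of 4 were called. Over all fits without 1 library there, 0 to 2 members passed the adjusted p.

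The wider Polycomb and Trithorax groups were examined in the same way. None of 44 further genes, made up of 7 PRC2 partners, 9 canonical and 10 variant PRC1 partners, 4 of the PR-DUB complex, 2 H3K27 demethylases and 12 COMPASS and Trithorax partners, was called by edgeR in any of the 7 comparisons (43 were tested in iBAT), nor did one pass an adjusted p under 0.05. The same held for 15 proliferation genes. Between genotypes, edgeR called only 0.00529% to 0.594% of all tested genes, so holding none does not set these lists apart. The effect of genotype was also compared between tissues or stages in 5 tests. No member passed (lowest adjusted p = 0.327, edgeR, 1 unadjusted p under 0.05), with estimates from -0.41 to 0.22. Of all tested genes, 0.0267% passed between lung stages, 0.0147% between somite stages, 0.00502% between trachea and lung, 0.73% between diaphragm and lung and 0.439% between diaphragm and trachea. On simulated data for lung stages, such a test called 35 of 50 genes changed by 2-fold, so differences can be missed. The difference between somite stages passed for *Cbx2* (-0.51, adjusted p = 0.024) and *Rnf2* (0.24, adjusted p = 0.0405) without wt replicate 3 at E10.5 (edgeR). This library held the highest wt *Cbx2* value of its group, and 2580 genes in place of 3 passed without it.

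Some members were called between stages, in shares near or below those of all tested genes. In lung from E12.5 to E15.5, *Cbx2* fell and *Cbx7* rose in both genotypes, the only 2 of 10 members called (24.6% of all tested genes were called in wt and 20% in *Hoxa5*-/- lungs). *Cbx2* was at 173, 175, 166 and 162 TPM at E12.5 and at 91.4, 83.9, 73.1 and 98.2 TPM at E15.5 in wt lungs. Every library at E15.5 lay below every one at E12.5, with a log2 fold change of -1.0 ± 0.08 (SE, adjusted p = 9.0e-06, edgeR) in wt and -0.81 ± 0.12 (adjusted p = 0.000472) in *Hoxa5*-/- lungs. *Cbx7* went from 3.47, 2.89, 2.6 and 3.07 TPM to 6.66, 5.88, 7.34 and 5.55 TPM in wt lungs. Again the stages did not overlap, and the log2 fold change was 1.04 ± 0.13 (adjusted p = 0.000103, edgeR) in wt and 1.17 ± 0.19 (adjusted p = 0.00105) in *Hoxa5*-/- lungs. Both encode chromodomain subunits that compete for the same place in PRC1.

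At the adjusted p alone, 6 of 10 members passed in wt lungs (50.2% of tested genes) and 5 in *Hoxa5*-/- lungs (36%), and TPM of the stages did not overlap for 6 (47.4% of tested genes) and 5 members (22.6%), or 6 (39.2%) without *Hoxa5*-/- replicate 4 at E15.5. The PRC2 genes moved less in lung. *Jarid2* had the largest difference among them, at -0.58 in wt and -0.53 in *Hoxa5*-/- lungs, which passed the adjusted p but fell short of a change of 1.5-fold. *Ezh2* was at -0.35 and -0.33, and the PRC1 ligase gene *Rnf2* at -0.37 and -0.31, also past the adjusted p in both genotypes. *Bmi1* was at 0.25 in wt lungs, past the adjusted p, and at 0.10 in *Hoxa5*-/- lungs, where it did not pass. The intervals of *Suz12*, *Eed*, *Ezh1* and *Kmt2a* stayed within -0.29 to 0.45, and none of these genes passed in either genotype. Of the 15 proliferation genes, 1 was higher and 4 were lower at E15.5 past the adjusted p in wt lungs, 1 and 2 in *Hoxa5*-/- lungs, each by less than the fold limit.

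In somites from E10.5 to E12.5, *Ezh2* fell by 1.08 on the log2 scale in both genotypes, the largest change of a member between these stages. Its wt libraries held 130, 147, 177 and 139 TPM at E10.5 and 77.1, 68.8, 71.7 and 75.8 TPM at E12.5. The *Hoxa5*-/- libraries went from 155, 165 and 170 TPM to 76.7, 73, 79.3 and 83.1 TPM. Stages did not overlap in either genotype (SE 0.08 with adjusted p = 7.5e-08 in wt, SE 0.07 with adjusted p = 2.5e-07 in *Hoxa5*-/- somites, edgeR). In wt somites 3 members were called (42.6% of tested genes), with *Eed* at -0.68 ± 0.09 and *Cbx7* at -0.80 ± 0.16 beside *Ezh2*. In *Hoxa5*-/- somites 2 were called (36.9% of tested genes), with *Cbx2* at -0.88 ± 0.10. The value of *Cbx2* in wt somites was -0.48, that of *Eed* in *Hoxa5*-/- somites -0.47 and that of *Cbx7* -0.64 (adjusted p = 0.0537, edgeR). As given above, these stage differences did not pass a test between genotypes with all libraries.

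At the adjusted p alone, 6 of 10 members were lower in wt somites (63.3% of tested genes passed), and 6 were lower and 1 higher in *Hoxa5*-/- somites (59.9%). TPM of the stages did not overlap for 4 members in wt (56.2% of tested genes) and 7 in *Hoxa5*-/- somites (61.4%). *Bmi1* and *Suz12* were also past the adjusted p in both genotypes, *Bmi1* at -0.58 and -0.43 and *Suz12* at -0.28 and -0.39. *Jarid2* passed it in *Hoxa5*-/- somites (-0.35) and was at -0.12 in wt somites. *Ezh1* had the opposite sign to *Ezh2*, at 0.20 in wt and 0.27 in *Hoxa5*-/- somites, past the adjusted p in the latter (0.026, edgeR). Other gene groups moved between the same stages. Of 15 proliferation genes, 13 were called lower in each genotype. The summed TPM of 5 neuron markers ran from 705 to 1320 at E10.5 and from 224 to 507 at E12.5, and *Tubb3*, a tubulin of neurons, from 531 to 1040 TPM and from 126 to 337 TPM, none of the neuron markers being at 0. Their part in the fall of *Ezh2* was not tested.

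**Figure D3:**
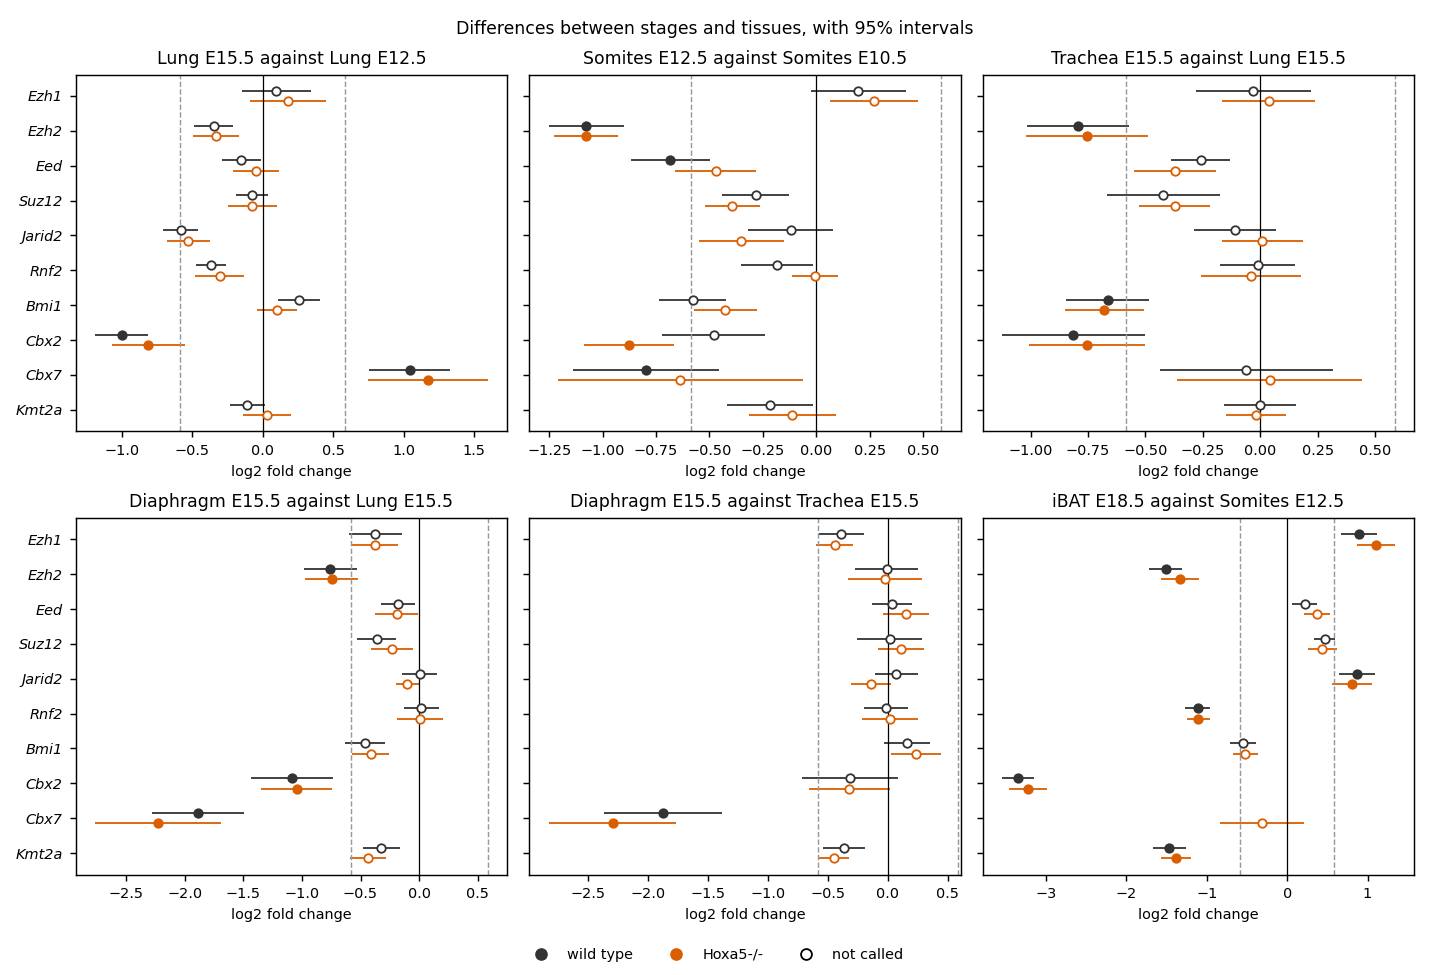
Log2 fold change of the 10 genes between stages (lung, somites) and tissues, with wt in dark grey, Hoxa5-/- in orange, bars for 95% intervals, filled points for called genes and dashed lines at a change of 1.5-fold. In somites, Ezh2 is at -1.08 in either genotype, while Cbx2 is at -0.48 in wt and -0.88 in Hoxa5-/-. Cbx7 is above 0 in the lung panel and below 0 in the somite panel.

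Trachea and lung were compared at E15.5. *Ezh2*, *Cbx2* and *Bmi1* were lower in trachea in both genotypes, 3 of 10 members called each time (30.2% of tested genes in wt, 27.1% in *Hoxa5*-/- tissues). *Ezh2* in wt trachea was at 52.9, 49.8, 49.4 and 64.3 TPM, below all 4 wt lung libraries given above, with a log2 fold change of -0.79 ± 0.10 (adjusted p = 0.000166, edgeR). In *Hoxa5*-/- tissues it was -0.75 ± 0.12 (adjusted p = 0.000808). *Cbx2* was at -0.81 and -0.75, and *Bmi1* at -0.66 and -0.68. *Eed* and *Suz12* passed the adjusted p without reaching the fold limit, at -0.26 and -0.42 in wt and at -0.37 and -0.37 in *Hoxa5*-/- tissues. These 5 of 10 members passed it in each genotype (49.6% and 48.1% of tested genes), and TPM of the tissues did not overlap for 5 members in wt (45% of tested genes) and 2 in *Hoxa5*-/- tissues (32%). Without *Hoxa5*-/- replicate 4 of lung, 5 members did not overlap in *Hoxa5*-/- tissues (49%). *Kmt2a*, *Rnf2*, *Ezh1*, *Jarid2* and *Cbx7* lay between -0.11 and 0.04, and the widest of their intervals was that of *Cbx7* in wt tissues (-0.44 to 0.32) with a like one in mutants (-0.36 to 0.44). Proliferation genes were lower in trachea as well, 15 of 15 called in wt and 14 of 15 in *Hoxa5*-/- tissues, and their part was not tested.

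Diaphragm at E15.5 differed most from lung in *Cbx7*, which had 1.24, 1.37, 1.88 and 1.09 TPM in wt diaphragm and 6.66, 5.88, 7.34 and 5.55 TPM in wt lung. No library overlapped, and the log2 fold change was -1.89 ± 0.17 (adjusted p = 1.8e-05, edgeR) in wt and -2.23 ± 0.24 (adjusted p = 4.6e-05) in *Hoxa5*-/- tissues. *Ezh2* at -0.76 and -0.75 and *Cbx2* at -1.09 and -1.04 were the other members called (36.4% of tested genes in wt and 36.2% in *Hoxa5*-/- tissues). *Bmi1* (-0.46 and -0.41), *Kmt2a* (-0.32 and -0.44), *Ezh1* (-0.37 and -0.38) and *Suz12* (-0.36 and -0.23) passed the adjusted p in both genotypes without reaching the fold limit. In all, 8 of 10 members passed it in wt (58.7% of tested genes) and 7 in *Hoxa5*-/- tissues (57.6%), all lower in diaphragm. TPM of diaphragm and lung did not overlap for 10 members in wt (63.6% of tested genes) and 4 in *Hoxa5*-/- tissues (39.2%), but 9 (65%) without *Hoxa5*-/- replicate 4 of lung. The number of members called in *Hoxa5*-/- lung against trachea, diaphragm or the earlier stage was the same without it. The 3 comparisons at E15.5 share libraries, so their values are set side by side only. Against trachea, *Cbx7* was the only member called, at -1.87 ± 0.22 (adjusted p = 0.000145, edgeR) in wt and -2.30 ± 0.23 (adjusted p = 6.7e-05) in *Hoxa5*-/- tissues (32.5% and 35.8% of tested genes). *Kmt2a* at -0.37 and -0.45 and *Ezh1* at -0.39 and -0.45 were also lower than in trachea past the adjusted p, which made 3 of 10 members in each genotype (49% of tested genes in wt, 57.5% in *Hoxa5*-/- tissues). TPM did not overlap for 4 members in each genotype (54% and 58.7% of tested genes). The hepatocyte gene *Alb* held 184 TPM or more in every diaphragm library, 47.4 TPM or less in every trachea library and 283 TPM or less in every lung library at E15.5, and its part in these differences was not tested. Of 15 proliferation genes, 10 were called lower than in lung in wt diaphragm and 4 in *Hoxa5*-/- diaphragm. Against trachea, 0 were called in wt and 1 was called higher in *Hoxa5*-/- diaphragm. Their part was not tested either. Scaling by total counts moved the median log2 fold change of all genes from -0.01 to -0.25 in wt diaphragm against lung and raised the called members from 3 to 6 and the share of all tested genes from 36.4% to 41.5%.

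iBAT at E18.5 and somites at E12.5 differed in most members, 6 being called in each genotype, but also in most genes (66.3% of those tested in wt and 65.7% in *Hoxa5*-/- tissues). *Cbx2* had the largest difference. Its wt libraries held 3.26, 3.27, 2.77, 3.2 and 4.4 TPM in iBAT and 81.7, 72.5, 82 and 80.2 TPM in somites. The log2 fold change was -3.35 ± 0.09 (adjusted p = 7.4e-14, edgeR) in wt and -3.22 ± 0.11 (adjusted p = 2.7e-12) in *Hoxa5*-/- tissues. *Ezh2* at -1.51 and -1.33, *Kmt2a* at -1.47 and -1.39 and *Rnf2* at -1.11 and -1.11 were lower in iBAT too. *Kmt2a*, the Trithorax member, held 6.57, 5.54, 6.59, 5.5 and 8.06 TPM in wt iBAT and from 35 to 46.8 TPM in wt somites, without overlap. At the adjusted p alone, after TMM scaling, 4 members were higher and 5 lower in each genotype, of 9 tested in wt and 10 in *Hoxa5*-/- tissues (80.3% of tested genes passed in wt, 79.8% in *Hoxa5*-/- tissues), and TPM did not overlap for 7 of 9 members in wt (81.4% of tested genes) and 9 of 10 in *Hoxa5*-/- tissues (82.3%). *Cbx7* was tested in *Hoxa5*-/- tissues only, at -0.32 with an interval of -0.83 to 0.20, and was called at -1.06 by total counts (adjusted p = 0.00112, edgeR). Stage, tissue and the large shift in all genes cannot be told apart here, and 15 of 15 proliferation genes were called lower in iBAT of both genotypes.

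*Ezh1* and *Jarid2* were higher in iBAT after TMM scaling, *Ezh1* at 0.89 ± 0.10 and 1.11 ± 0.11 and *Jarid2* at 0.87 ± 0.10 and 0.81 ± 0.12, but this rests on the scaling. Scaling by total counts moved the median of all genes from -0.16 to -0.80 in wt and from -0.10 to -0.84 in *Hoxa5*-/- tissues, and left *Ezh1* at 0.24 and 0.36 and *Jarid2* at 0.22 and 0.06, none of them called (73.6% and 74.2% of tested genes were). *Bmi1* went from -0.55 and -0.52, not called, to -1.20 and -1.27, called. The mean TPM of *Ezh1* in wt iBAT was 0.80 times that in somites, and of *Jarid2* 0.793 times. *Eed* and *Suz12*, above 0 after TMM scaling (0.22 and 0.47 in wt), were below 0 by total counts (-0.43 and -0.18) and by TPM. Relative to the median of all genes, *Ezh1* in wt tissues stood at 1.06 after TMM scaling and at 1.04 by total counts, and *Ezh2* at -1.35 by both. *Cbx2*, *Ezh2*, *Kmt2a* and *Rnf2* were lower on each of these scales, and so was *Bmi1*, called by total counts only.

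The balance of paralogs within a library does not depend on such scaling, although its size rests on the exon lengths listed for the genes. The TPM ratio of *Ezh2* to *Ezh1* was highest in somites at E10.5, with 13.7 ± 1.4 (SD, n = 4) in wt and 15.3 ± 1.05 (n = 3) in *Hoxa5*-/- libraries. It was 5.71 ± 0.667 (n = 4) in wt somites at E12.5 and 1.08 ± 0.205 (n = 5) in wt iBAT, where single libraries ran from 0.894 to 1.33. In wt lung it went from 5.94 ± 0.589 at E12.5 to 4.42 ± 0.835 at E15.5 (n = 4 each), with values of 5.13 to 6.49 and 3.23 to 5.14 that just overlapped. Trachea and diaphragm lay at 2.59 ± 0.508 and 3.32 ± 0.513 in wt (n = 4 each).

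**Figure D4:**
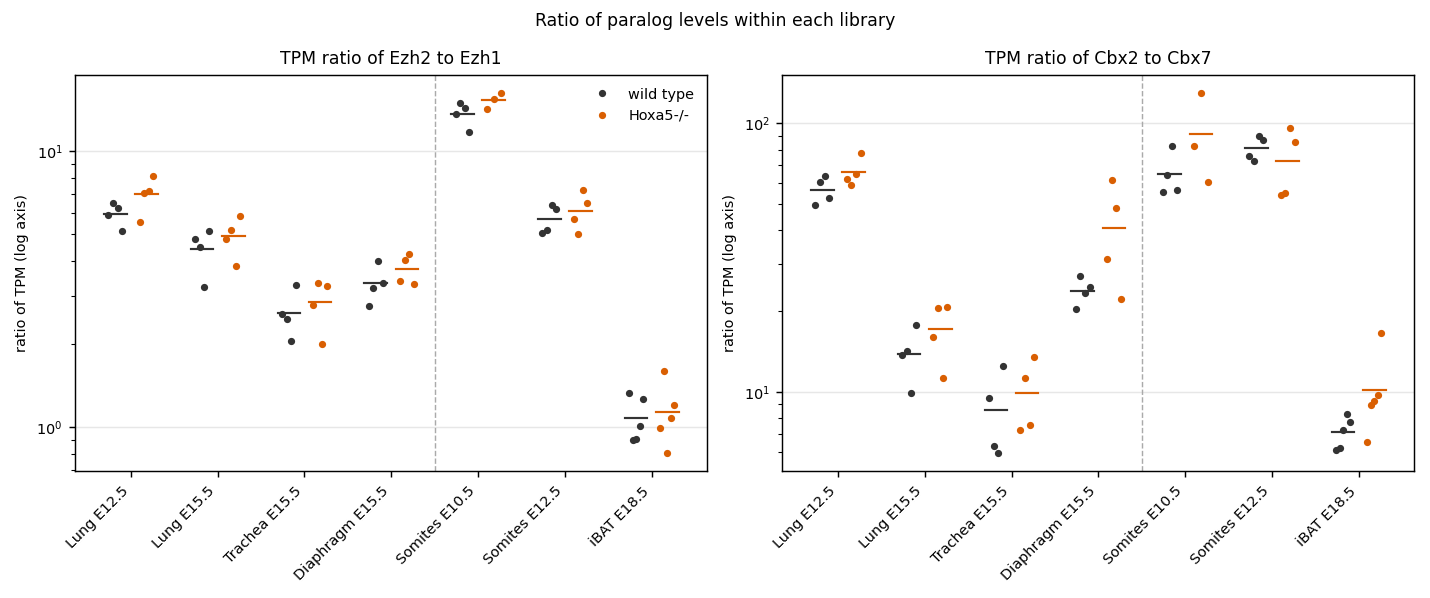
TPM ratio of Ezh2 to Ezh1 (left) and of Cbx2 to Cbx7 (right) in each library, log axes, with wt in dark grey, Hoxa5-/- in orange and bars for group means; the dashed line separates the sets sequenced at different centres. Ezh2 exceeds Ezh1 most in somites at E10.5 and is near a ratio of 1 in iBAT, and the Cbx2 to Cbx7 ratio drops between the lung stages.

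For the chromodomain genes, the ratio of *Cbx2* to *Cbx7* in wt lung was 56.8 ± 6.62 at E12.5 and 13.9 ± 3.18 at E15.5 (SD, n = 4 each), without overlap. *Hoxa5*-/- lungs had 65.9 ± 8.14 and 17.1 ± 4.46. In wt somites the ratio was 64.6 ± 12.3 at E10.5 and 81 ± 8.34 at E12.5 (n = 4 each), with overlap. It was 7.11 ± 0.957 in wt iBAT (n = 5), where *Cbx7* rests on 18 to 29 counts per library. These ratios are descriptions, and no test was made on them.

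Between stages and tissues, the 44 further Polycomb and Trithorax genes moved in both directions. Between lung stages, 24.6% of all tested genes were called in wt and 20% in *Hoxa5*-/- libraries, each genotype taken alone. Of the 44 genes, 3 were called higher and 4 lower at E15.5 in both genotypes. They are named here by the size of their wt value. The largest rise was that of *Pcgf5*, a ring-finger gene of variant PRC1 (1.41 in wt and 1.41 in *Hoxa5*-/- lungs), followed by *Phf19* of PRC2 (0.89 and 1.15) and the chromodomain gene *Cbx6* (0.73 and 0.74). The largest falls were those of *Asxl3* of PR-DUB (-1.26 and -1.01), *Epop* of PRC2 (-1.21 and -0.79) and *Auts2* of variant PRC1 (-0.93 and -0.97). Their median over the list was -0.06 in wt lungs, beside -0.13 for the 10 members and -0.01 for all genes.

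Between somite stages, 42.6% of all tested genes were called in wt and 36.9% in *Hoxa5*-/- libraries, each genotype taken alone. Of the listed genes, 6 were called higher and 5 lower at E12.5 in both genotypes. *Phf19* (2.14 and 1.97) and *Cbx6* (1.55 and 1.34) were among those that rose, and *Epop* (-1.56 and -1.97), *Pcgf6* (-0.96 and -0.96) and *Yaf2* (-0.94 and -0.87) fell most. The median was -0.02 for the list and -0.38 for the members in wt somites, and -0.04 for all genes.

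Between tissues, trachea had 2 of the 44 genes higher (*Auts2* at 0.92 and 0.88, *Cbx6* at 0.73 and 0.70) and 3 lower than lung in both genotypes, *Epop* (-1.12 and -0.65), *Bcor* (-0.65 and -0.71) and *Asxl1* (-0.59 and -0.65). Diaphragm had 1 higher than lung, *Phf19* (1.11 and 1.06), and 7 lower, led by *Epop* (-1.91 and -1.77), *Rybp* (-0.80 and -0.88) and *Phc2* (-0.77 and -0.82). Against trachea, 6 were lower in diaphragm in both genotypes, with *Pcgf5* (-1.24 and -0.69), *Auts2* (-0.97 and -1.07) and *Cbx8* (-0.77 and -0.75) first. In iBAT, 5 were higher and 19 lower than in somites at E12.5, with *Pcgf5* (2.22 and 2.19), *Dpy30* (1.74 and 1.92) and *Phf19* (1.40 and 1.46) highest and *Auts2* (-3.25 and -3.11), *Asxl3* (-3.05 and -3.17) and *Phc1* (-2.72 and -2.76) lowest. The shares of all tested genes called in wt and in *Hoxa5*-/- tissues were 30.2% and 27.1% for trachea against lung. They were 36.4% and 36.2% for diaphragm against lung, 32.5% and 35.8% against trachea, and 66.3% and 65.7% for iBAT against somites.

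The genes whose group means were most like those of *Ezh2* were *BC055324*, *Hells*, *Tra2b*, *Nono* and *Ints11*, among 18932 genes with at least 1 TPM in a group of each set. Likeness was the smaller of 2 Pearson correlations of log2(mean TPM + 1), over 8 groups of trachea, lung and diaphragm and over 6 groups of somites and iBAT. For *BC055324* and *Hells*, a chromatin remodeller of dividing cells, these were 0.998 and 0.999, and for *Ints11* 0.996 and 0.997. Among members, *Ezh2* was closest to *Eed* (0.981 and 0.991), *Cbx2* (0.981 and 0.986) and *Suz12* (0.974 and 0.991), and least like *Ezh1* (0.469 and 0.231). Of the proliferation genes *Top2a* and *Mki67*, the first had 0.973 and 0.999 and the second 0.442 and 0.996. For *Ezh1* the nearest genes were *Jade2* (0.991 and 0.968), *Bmper*, *Tbx3os1*, *Pcolce2* and *Col27a1*, the smaller correlation being 0.961 or more. All these correlations use the same libraries and the scale of TPM, and each tissue and stage enters once per genotype. With so few distinct groups, the correlations are a description. Ranking by Spearman correlation kept 0 of the 5 genes for either member, which leaves the names dependent on the measure.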

How the data were processed

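The deposited tables hold counts per gene and TPM for 32 libraries of trachea, lung and diaphragm and, apart, for 25 libraries of somites and iBAT. The authors made the counts with Trim Galore 0.6.5, STAR 2.7.9a and featureCounts 2.0.3 on GRCm39, as named in the submitters' processing notes and the methods. The strand setting of the counting is not given in the sources used here. The deposited TPM values could be recomputed from the deposited counts and lengths to within 2.91e-11. No library was identical to another.

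Genes with a mean TPM under 1 in every group compared were left out. Counts were tested with edgeR 4.0.16 (quasi-likelihood test, TMM scaling, R 4.3.3) within each table, and p-values were adjusted over all genes tested by the Benjamini-Hochberg method. A gene was called at an adjusted p under 0.05 and a change of at least 1.5-fold, or at the adjusted p alone for differences of genotype effects between tissues or stages. Tests were made for genotype (7), stage and tissue in each genotype (12) and differences of genotype effects (5). Intervals are 95% intervals of the edgeR fit.

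The members and the gene lists were chosen with earlier results of these data known. Named genes were the 10 members, Hoxa5, from the wider lists up to 3 per direction with the largest change among those called in both genotypes, and the 5 genes most like Ezh2 and Ezh1. A gene that this rule named is not reported here. Alternatives were DESeq2 1.42.0, its size factors in edgeR, other filters, no fold limit, 1 fit for all libraries, a replicate block, leaving out each library and, chosen after seeing the data, total counts in place of TMM and TPM overlaps without a lung library. Replicate numbers were tested for pairing by the correlation of same-numbered libraries in their deviations from group means. Every pair reached 0.1 only in wt trachea against lung at E15.5 (0.1 to 0.429), where 4 of 4 libraries correlated best with their own number.

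The procedure was tested on simulated data for genotype in lung at E12.5 (17548 genes). It called 21 of 50 genes changed by 1.5-fold (36 passed the adjusted p), 48 of 50 changed by 2-fold and 5 of 17348 unchanged genes. For the difference of genotype effects between lung stages, it called 21 of 50 genes changed by 1.5-fold and 35 of 50 changed by 2-fold. The changed genes were drawn only above a minimum mean count, so counts as low as those of Cbx7 in diaphragm (52 to 109) are not covered. Genotype in other tissues, or with 3 libraries in a group, was not simulated.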

Additional observations from a re-analysis of the deposited data

Results flagged for a closer look

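Among 130 groups of 4 or 5 libraries, 10 had a TPM value far from the others of its group, and chance alone marks about 1 group in 20. Ezh1 was high in Hoxa5-/- replicate 1 of lung at E12.5 (19.7 TPM, others 16.4 to 16.8) and in wt replicate 3 of lung at E15.5 (25.8 TPM, others 19.5 to 19.7). Eed was high in wt replicate 4 of lung at E15.5 (55.9 TPM), and Suz12 was high in Hoxa5-/- replicate 4 of lung at E12.5 (123 TPM) and low in Hoxa5-/- replicate 1 of somites at E12.5 (64.2 TPM). Hoxa5-/- replicate 4 of lung at E15.5 was low in Jarid2 (23.4 TPM, others 33.6 to 35.6) and Bmi1 (59.9 TPM, others 81.9 to 84.7), and the lowest of its group in all 10 members and in 85.4% of genes. Jarid2 was high in wt replicate 4 of diaphragm (28.6 TPM), Cbx7 low in wt replicate 1 of somites at E10.5 (1.47 TPM) and Kmt2a high in wt replicate 4 of trachea (66.7 TPM).

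In wt tissues, the later stage was higher in lung and lower in somites for Cbx7 (log2 fold changes of 1.04 and -0.80) and for Bmi1 (0.25 and -0.58). These differences between tissues were not tested.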

How the results depend on the processing

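With no fold minimum, the members called were 6 in wt and 5 in Hoxa5-/- lungs between stages, 6 and 7 in somites, 5 and 5 for trachea against lung, 8 and 7 for diaphragm against lung, and 3 and 3 for diaphragm against trachea. With total counts in place of TMM, 6 were called for wt diaphragm against lung (41.5% of tested genes). Kmt2a was then also called in Hoxa5-/- diaphragm against lung (-0.60) and Bmi1 between wt somite stages (-0.62). Relative to the median of all genes, these 2 values stood at -0.40 and -0.54 under either scaling. Ezh1 and Kmt2a were also called for diaphragm against trachea in both genotypes. Relative to the median, Ezh1 stood at -0.35 in wt and -0.41 in Hoxa5-/- tissues under either scaling, and Kmt2a at -0.33 and -0.41. In iBAT against somites, Eed (-0.43 in wt, -0.37 in Hoxa5-/- tissues) and Suz12 (-0.18 and -0.31) turned to lower. The cause was not tested. Leaving out 1 library at a time gave 0 to 2 members for the difference of genotype effects between somite stages, with 2 without wt replicate 3 at E10.5. Genotype values of Cbx7 turned sign in 3 such fits. In somites at E10.5 they ran from -0.36 (without Hoxa5-/- replicate 3) to 0.20 (without Hoxa5-/- replicate 2), and in trachea from -0.16 (without wt replicate 4) to 0.069 (without wt replicate 3), with 0.063 without Hoxa5-/- replicate 4. Over all alternatives, 21 of the 69 genotype values changed sign, none of them past 0.08 in size with all libraries. Of the 73 stage and tissue values past the adjusted p, 4 changed sign, those of Eed and Suz12 above.

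Over fits without 1 library, genes called between genotypes ran from 0 to 1 in trachea (3 with all libraries), 30 to 139 in diaphragm (107) and 1 to 1 in iBAT (1). The range was 5 to 14 for the earlier (14) and 5 to 37 for the later lung stage (22), and 1 to 386 for the earlier (4) and 1 to 2 for the later somite stage (1).

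A replicate block changed no count of members called, although the numbers pair libraries in 1 comparison only. Same-numbered iBAT libraries of both genotypes also share a number at the start of their names, whose meaning the labels do not give. Their correlations were 0.0727 to 0.189, and 4 of 5 correlated best with their own number. With the block, Suz12 in diaphragm was at 0.20 between genotypes with an adjusted p of 0.04 (edgeR), under the fold limit. Low counts limit Cbx7, with 10 to 666 per library.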
